A study of Citrus junos with 4 samples.

Results

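The genes described here have descriptions that mention enzymes and complexes that write, erase or read DNA methylation, small RNAs and chromatin marks. They are the 293 genes, of 29406 in the table of leaf transcript levels, whose description contains a phrase such as argonaute, dicer, polycomb, histone deacetylase or DNA (cytosine-5). By their descriptions, 198 of them were assigned by hand to 1 of 12 roles of such factors. The other 95 were kept as a mixed class, in which most descriptions open with another protein. The phrases DNA demethylation and DNA-directed RNA polymerase IV matched 0 genes. Leaves of Citrus junos cv. Ziyang xiangcheng were sampled from diploid (2×) seedlings and from doubled diploid (4×) seedlings, which arose by genome doubling of the same genotype. RNA of mature leaves from near the plant top, 3 to 5 months old and untreated, was sequenced in 2 libraries per ploidy, called 2×-1, 2×-2, 4×-1 and 4×-2. Each library pooled leaves of 4 plants, so it shows a pool and not the spread between plants. By the study's marker typing the plants share 1 genotype, which limits what the comparison says of other genotypes.

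In plants, cytosine methylation is copied after replication by maintenance enzymes, and new methylation is guided to DNA by small RNAs. These small RNAs are made by RNA-dependent RNA polymerases and Dicers and are carried by Argonautes. Histone methylation, histone acetylation, Polycomb complexes and remodelers that slide nucleosomes act on the same chromatin. Genome doubling has been studied in many plants as an event that can be followed by changes in these marks. The transcript levels below measure the enzymes' RNA and not methylation, small RNAs or histone marks.

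Levels are in RPKM, reads scaled by gene length and library size. Whole reads were recovered from the values, and the library totals were 9324856, 9545185, 9363285 and 8874306 reads in the order above. RPKM is relative to the library, so a doubling of all transcripts per cell would not appear in it. In leaf RNA, fewer cells of a type and less RNA per cell cannot be told apart. The summed level of the leaf mesophyll markers was 15111 to 18491 RPKM in 2× and 17810 to 18049 RPKM in 4×, with 0 of 17 listed at 0 in all libraries. Of the 15 tested, 13 lay above 0, with a median log2 difference of 0.23 over the 15. Limma called 1, a rubisco small chain gene lower in 4× (Cs4g03580, -0.89), and limma voom called 2. Cs4g03580 had a mean below 10 RPKM. The other rubisco small chain gene, with a mean of 7276 RPKM, was at 0.32 and was not called by limma. Together the 2 summed to 5875 and 7095 RPKM in 2× and 8081 and 8073 RPKM in 4×. Dividing-cell markers summed to 357 to 361 RPKM in 2× and 365 to 383 RPKM in 4×, with 1 of 47 listed at 0. Of the 17 tested, limma called 0, with an unadjusted p below 0.05 for 2, and voom called 1, the cyclin gene Cs1g21610, which was lower in 4×. Most of the dividing-cell sum came from the 7 genes matched by cyclin-dependent kinase B. They summed to 307 RPKM in both 2× libraries and to 312 and 332 RPKM in 4×. The 24 genes matched by G2/mitotic-specific cyclin summed to 14.7 and 13.6 RPKM in 2× and to 12.2 and 10.9 RPKM in 4×. Genes matched by vascular words summed to 5638 to 6103 RPKM in 2× and 5867 to 5959 RPKM in 4×, with 27 of 191 at 0. Of these, 151 matched phloem protein 2, many with descriptions that open as TMV resistance protein N. The words xylem cysteine proteinase also matched other proteases such as Vignain, so this sum does not measure vascular cells alone. Limma called 2 of the 62 tested, both with xylem cysteine proteinase in their descriptions and higher in 4×. Guard cell markers summed to 13.2 to 15.6 RPKM in 2× and 13.5 to 15.9 RPKM in 4×, with 3 of 14 at 0. Root markers summed to 34.7 to 37.3 RPKM in 2× and 34.2 to 36.4 RPKM in 4×, with 2 of 9 at 0. The part of these cell types in the results was not tested.

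Most of the machinery was transcribed in mature leaves. At least 1 library had a value above 0 for 277 of the 293 genes, 119 reached a mean of 10 RPKM, and 228 reached the mean of 1 RPKM needed for the test. The median level of the tested members was 10.5 RPKM, beside 13.6 RPKM over all 16157 tested genes. Levels differed by role. Polycomb proteins had a median of 25.0 RPKM over their 13 tested genes, histone deacetylases 20.7 RPKM and histone acetyltransferases 19.7 RPKM. DNA methyltransferases had a median of 2.39 RPKM over 7 tested genes, and RNA-dependent RNA polymerases 2.77 RPKM over 4. The 65 members left untested include 12 of the 16 RNA-dependent RNA polymerases and 9 of the 16 DNA methyltransferases. Most of these 21 genes are described as RDR1 or MET1, each a name that 11 genes share. Reads that fit several similar copies are lost when unique mapping is required, so their values are less certain.

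**Figure D1:**
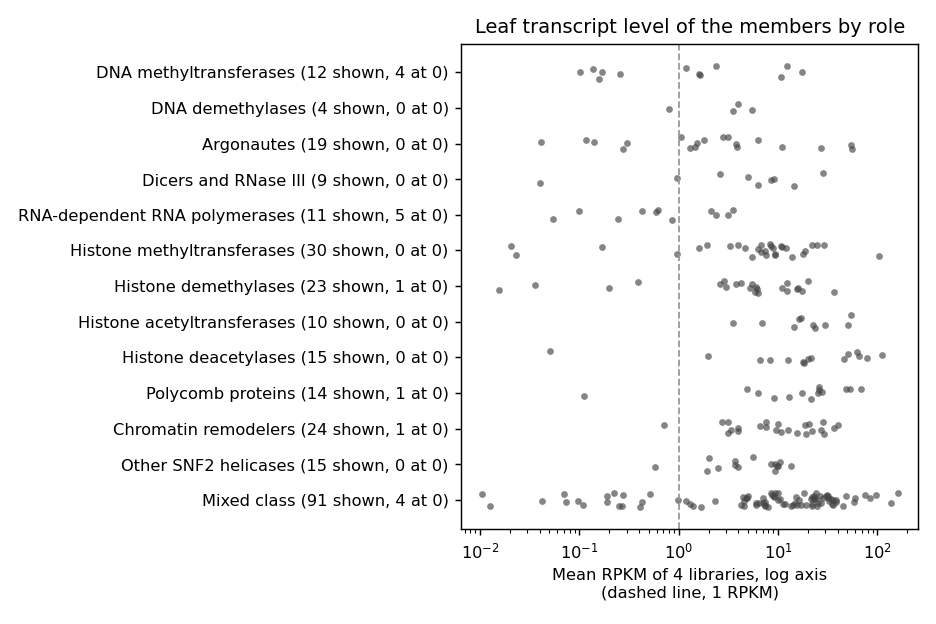
Mean level over the 4 libraries (RPKM, log axis) of each member, 1 point per gene, by role, with the number of genes listed at 0 given beside each role and a dashed line at the 1 RPKM needed for the test. Polycomb proteins, acetyltransferases and deacetylases lie mostly above the line, while many DNA methyltransferases and RNA-dependent RNA polymerases lie below it.

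To ask whether ploidy altered this machinery, 4× was compared with 2× on log2(RPKM + 0.5) with limma, and a gene was called when its Benjamini-Hochberg adjusted p over all 16157 genes was below 0.05. Only 2 of the 228 tested members were called, 0.877% of them, where 1.39% of all tested genes were called. Both were lower in 4×, a direction in which 0.99% of all tested genes were called. The higher direction held 0 members and 0.396% of all tested genes. The limit here is 2 libraries per ploidy, so p-values measure the spread between pools. An unadjusted p below 0.05 was found for 11 members, 4.82%, beside 13.3% of all tested genes. The median log2 difference of the members was -0.014, beside -0.027 over all tested genes. Below 0 lay 126 members and above it 102, beside 8987 and 7170 of all tested genes. The 95% interval of the difference, not corrected for the number of genes, lay within a 2-fold change either way for 220 of the 228 members (96.5%) and for 92.0% of all tested genes. The remaining 8 were the 2 called genes and genes described as CMT2, AGO2, SNF21, RAD54, HMGB9 and an ankyrin repeat protein. The level in both 4× libraries was above, or in both below, both 2× libraries for 62 members (27.2%), beside 43.7% of all tested genes.

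**Figure D2:**
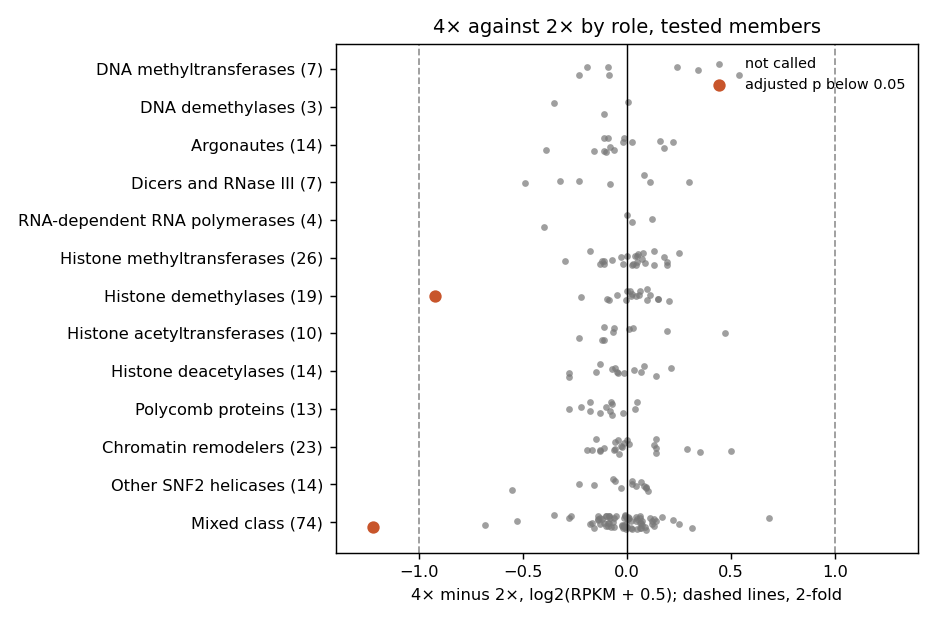
Difference between 4× and 2× (log2 scale, 1 point per tested member) by role, with the number tested in brackets, dashed lines at a 2-fold change and the 2 called members as large orange points. All other members lie within 0.68 of 0, and both called members lie below 0.

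The most changed member was Cs1g21740, described first as BTB/POZ and TAZ domain-containing protein 4. Proteins of this family, known as BT proteins in Arabidopsis, combine a protein-interaction domain with a TAZ zinc finger, which they share with the acetyltransferase HAC1 that brings the gene into the set. It measured 38.0 RPKM in 2×-1, 38.9 in 2×-2, 16.6 in 4×-1 and 15.9 in 4×-2. The groups were far apart and the libraries within each group nearly equal. The 2× mean of 38.4 ± 0.658 RPKM (SD, n = 2) stood against 16.2 ± 0.554 RPKM (SD, n = 2) in 4×, a log2 difference of -1.22 with SE 0.109 and a limma adjusted p of 0.00175. Behind these values stood 657, 689, 289 and 261 reads. Leaving out each library in turn kept the log2 difference between -1.25 and -1.18, with a limma adjusted p of at most 0.0141.

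Its relatives, named after their values were seen, were not called. Cs5g06590, described as the BT protein 1, measured 47.8 and 28.4 RPKM in 2× and 32.7 and 33.0 RPKM in 4×, so the 4× values fell between the 2× values. The gene described as BT protein 3, orange1.1t02119, measured 26.1 and 21.8 RPKM in 2× and 21.2 and 22.0 RPKM in 4×. HAC1 itself, Cs8g21090, a large acetyltransferase and coactivator, measured 16.2 and 15.9 RPKM in 2× and 14.8 and 17.6 RPKM in 4×, with overlapping groups. Whether these genes differed from Cs1g21740 in their response was not tested.

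The other called member, orange1.1t03148, is described as lysine-specific demethylase 8, a JmjC domain protein (KDM8-like). JmjC proteins are oxygenases, and many of them remove methyl groups from histone lysines. Its levels were 14.8 RPKM in 2×-1, 17.6 in 2×-2, 7.63 in 4×-1 and 9.03 in 4×-2. Both 4× libraries lay below both 2× libraries. Means were 16.2 ± 1.93 RPKM (SD, n = 2) in 2× and 8.33 ± 0.991 RPKM (SD, n = 2) in 4×, a log2 difference of -0.92 with SE 0.148, a 95% interval from -1.25 to -0.59 and a limma adjusted p of 0.0236. The call was lost without 2×-2, where the log2 difference was -0.80 and the limma adjusted p 0.125. A further gene with the same description, Cs5g30690, measured 16.8 and 14.2 RPKM in 2× and 16.1 and 14.7 RPKM in 4×, and its groups overlapped. Both calls were lost when all genes with any value above 0 were tested together, with limma adjusted p of 0.132 for Cs1g21740 and 0.229 for orange1.1t03148. In that fit 0 of 277 members and 0 of 24073 genes were called, although 12 members and 2438 genes (10.1%) had an unadjusted p below 0.05. With limma voom on the recovered reads, Cs1g21740 and orange1.1t03148 were called, while 2.5% of all tested genes were called.

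**Figure D3:**
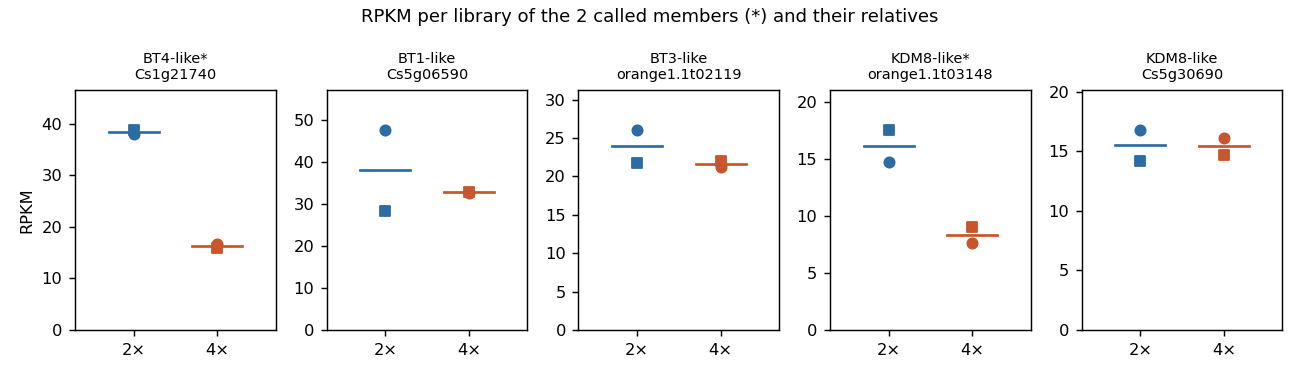
RPKM in each library (circle, replicate 1, square, replicate 2, bar, mean of 2 libraries) of the 2 called members, marked with an asterisk, and of 3 relatives, each panel on its own axis from 0. In the called genes the 4× points lie well below the 2× points, and in the relatives they lie between or close to them.

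In 11 of the 13 classes limma called 0 of 135 tested genes, and so did limma voom. Over all tested genes limma called 1.39% and voom 2.5%. In these classes 5 of the 135 genes had an unadjusted p below 0.05 in limma, beside 13.3% of all tested genes. In voom 10 of them did, beside 13.9% of all tested genes. The DNA methyltransferases were among these classes. Methyltransferase 1 (MET1) maintains methylation at CG sites in Arabidopsis, and Cs1g19690 was its most abundant copy here. It measured 2.27 and 1.81 RPKM in 2× and 3.13 and 2.34 RPKM in 4×. The groups just missed each other, and the log2 difference of 0.34 had a 95% interval from -0.19 to 0.88. Of 11 genes described as MET1 or its 1A and 1B forms, 9 were below the 1 RPKM needed for the test, among them 4 at 0 in every library. The chromomethylases CMT3 and CMT2 act outside CG sites in Arabidopsis. CMT3 (orange1.1t02057) measured 1.04 RPKM in both 2× libraries and 1.60 and 1.09 RPKM in 4×. CMT2 (Cs3g08350) measured 1.77 and 0.766 RPKM in 2× and 1.68 and 2.29 RPKM in 4×, from 27 to 75 reads per library. The 2 libraries of 2× thus differed more than the means of 2× and 4×, and the interval of the log2 difference, -0.19 to 1.27, was the widest on the upper side in this class. The de novo methyltransferase DRM2, the enzyme guided by small RNAs in Arabidopsis, was the most abundant. One DRM2 gene, Cs9g01610, measured 19.1 and 17.1 RPKM in 2× and 17.1 and 16.7 RPKM in 4×. Another, Cs2g27880, measured 13.2 and 13.7 RPKM in 2× and 11.6 and 11.2 RPKM in 4×. Its 4× values were both lower, but the log2 difference of -0.23 with SE 0.126 was not called (limma adjusted p = 0.492).

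The DNA demethylases DEMETER (DME) and ROS1 are glycosylases that cut out methylated cytosine. DME (orange1.1t01511) measured 5.40 and 5.92 RPKM in 2× and 4.79 and 5.64 RPKM in 4×. ROS1 was described for 3 genes, of which Cs6g15500 measured 3.98 and 3.99 RPKM in 2× and 3.55 and 4.51 RPKM in 4×. Another ROS1 gene, Cs3g07800, measured 4.12 and 3.96 RPKM in 2× and 2.79 and 3.33 RPKM in 4×. Its groups did not overlap, while its log2 difference of -0.35 had a 95% interval from -0.79 to 0.08 and a limma adjusted p of 0.491. The third, Cs5g04950, stayed below 1 RPKM in every library and was not tested.

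The small RNA machinery was likewise without a call. RDR2 (Cs5g05170), which supplies double-stranded RNA for DNA methylation in Arabidopsis, measured 3.11 and 4.16 RPKM in 2× and 2.16 and 3.15 RPKM in 4×. The 95% interval of its log2 difference reached from -0.93 to 0.14. RDR6 (Cs7g05350), which acts in the trans-acting small RNA pathway, measured 3.89 and 3.22 RPKM in 2× and 3.46 and 3.62 RPKM in 4×. RDR1, known from antiviral defence, was named by 11 genes, of which only Cs2g17570 was tested, at 2.60 and 2.11 RPKM in 2× and 1.93 and 2.93 RPKM in 4×. For 5 of the 11 the value was 0 in every library.

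Dicers cut double-stranded RNA into small RNAs. DCL1 (orange1.1t00584), the microRNA producer, measured 8.61 and 8.76 RPKM in 2× and 7.90 and 11.2 RPKM in 4×. DCL3 (Cs4g06370), which makes the small RNAs of DNA methylation, measured 4.73 and 4.88 RPKM in 2× and 4.39 and 5.96 RPKM in 4×. DCL4 (Cs4g01340) measured 8.52 and 8.99 RPKM in 2× and 7.11 and 9.54 RPKM in 4×. In all 3 the 2× values lay between those of 4×-1 and 4×-2. DCL2 (Cs6g03500), known for its part in antiviral silencing, stood apart with 3.03 and 3.26 RPKM in 2× and 1.83 and 2.41 RPKM in 4×. The 4× values were both lower, with a log2 difference of -0.49, a 95% interval from -0.99 to 0.014 and a limma adjusted p of 0.392. Its neighbour Cs6g03520, also described as DCL2, had overlapping groups and a mean of 0.971 RPKM. Cs1g11860 was named RTL1, an RNase III-like gene, although its description opens with Dicer-like protein 4. It measured 28.2 and 22.6 RPKM in 2× and 31.7 and 30.6 RPKM in 4×, a log2 difference of 0.30 with a limma adjusted p of 0.355.

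Argonautes bind small RNAs and carry out silencing. AGO1 (Cs5g16710), the main microRNA carrier, measured 58.8 and 53.0 RPKM in 2× and 50.8 and 60.3 RPKM in 4×. The 2× values lay inside the range of 4×. AGO4 (Cs2g29070), which carries the small RNAs of DNA methylation, measured 49.6 and 50.8 RPKM in 2× and 54.8 and 62.3 RPKM in 4×. Its 4× libraries were both higher, with a log2 difference of 0.22, a 95% interval from -0.03 to 0.46 and a limma adjusted p of 0.442. Of 14 tested Argonautes 10 lay below 0, AGO4 not among them, beside 8987 of all 16157 tested genes. The median log2 difference of the 14 was -0.07, which was 0.128 without 4×-1 and 0.015 without 2×-1. AGO2 (Cs2g10760) had the lowest value of the class at -0.39, from 30 to 56 reads per library. A run of 7 AGO5 genes from Cs7g17880 to Cs7g17970 summed to 54.5 and 58.6 RPKM in 2× and 49.3 and 62.0 RPKM in 4×. All 7 had overlapping groups, while groups did not overlap for 43.7% of all tested genes. The genes share a description and neighbouring identifiers, so the split of reads among them is uncertain.

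**Figure D4:**
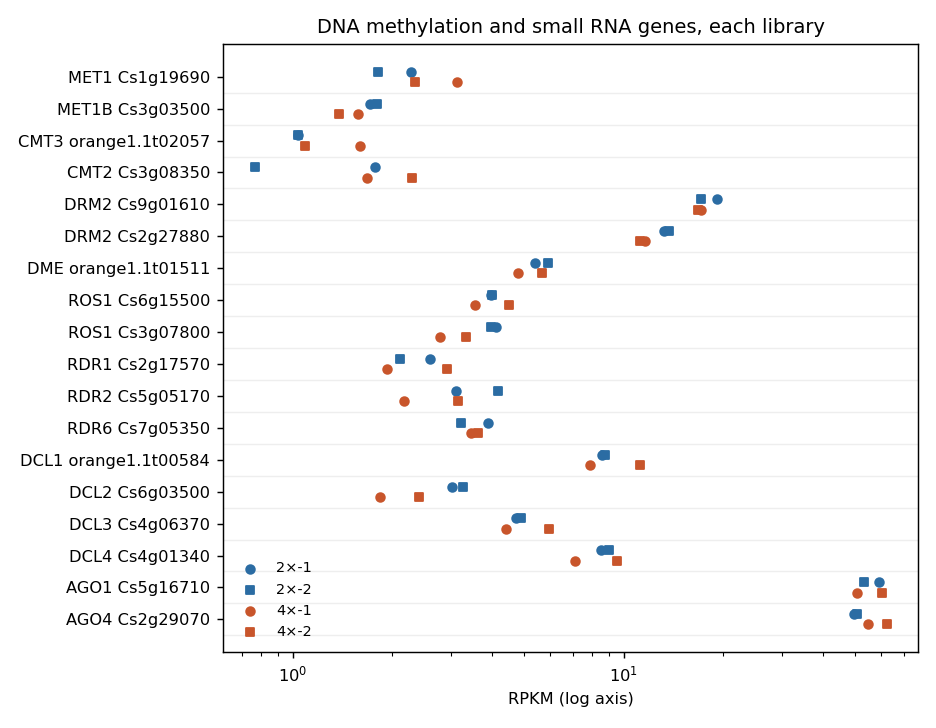
RPKM (log axis) of 18 DNA methylation and small RNA genes in each library, 2× in blue above 4× in orange on each line. Both 4× points lie left of both 2× points for DCL2, MET1B, 1 ROS1 gene and 1 DRM2 gene, and right of them for AGO4, MET1 and CMT3. Groups did not overlap for 43.7% of all tested genes. Limma called none of the 18, where it called 1.39% of all tested genes.

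Histone methyltransferases were the largest of the 12 role classes, with 26 of 30 genes tested and 0 called, where limma called 1.39% of all tested genes. Their log2 differences ran from -0.30 to 0.25 with a median of 0.04. The interval of every one of the 26 lay within a 2-fold change, as did that of 92% of all tested genes. ATX4 (orange1.1t05951), a trithorax-type enzyme, was the most abundant at 106 and 101 RPKM in 2× and 112 and 102 RPKM in 4×, with overlapping groups. The largest difference in the class was that of orange1.1t04028, described as SETD1B, at 7.77 and 7.05 RPKM in 2× and 5.31 and 6.55 RPKM in 4×. Among the demethylases, KDM3B (Cs3g14120) was the most abundant at 36.2 and 35.9 RPKM in 2× and 38.0 and 34.9 RPKM in 4×. LDL1 (Cs3g26980), a flavin-dependent demethylase, measured 4.41 and 4.27 RPKM in 2× and 4.04 and 4.33 RPKM in 4×. REF6, which removes Polycomb-linked methylation in Arabidopsis, was described for 3 genes. The highest of these, Cs5g06680, measured 2.65 and 2.96 RPKM in 2× and 2.58 and 3.13 RPKM in 4×. Apart from orange1.1t03148, the 19 tested demethylases had log2 differences between -0.22 and 0.20.

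Histone acetylation is laid down by acetyltransferases and removed by deacetylases. The acetyltransferase GCN5 (Cs5g30470) measured 15.7 and 14.2 RPKM in 2× and 12.0 and 15.8 RPKM in 4×. MYST1 (Cs3g18990), the most abundant of this class, measured 58.6 and 53.4 RPKM in 2× and 53.9 and 52.7 RPKM in 4×. Cs5g17520, described as related to the yeast acetyltransferase HPA2, gave the highest value of the class. It measured 37.4 and 48.5 RPKM in 2× and 59.8 and 58.8 RPKM in 4×, with a log2 difference of 0.47, a 95% interval from 0.18 to 0.77 and a limma adjusted p of 0.133. The 4× libraries were higher and nearly equal, and those of 2× lay further apart. HDA19 (Cs8g01020) and HDA6 (Cs5g05970), the best-known deacetylases of Arabidopsis, gave small differences. HDA19 measured 62.5 and 63.0 RPKM in 2× and 62.4 and 59.3 RPKM in 4×. HDA6 measured 19.5 and 19.7 RPKM in 2× and 18.9 and 21.3 RPKM in 4×. SAP18 (orange1.1t00274), a corepressor subunit, was the most abundant of the class at 101 to 117 RPKM. HDA8 (Cs6g12720), the only tested deacetylase with an unadjusted limma p below 0.05, measured 19.7 and 19.6 RPKM in 2× and 15.3 and 16.9 RPKM in 4×. Its log2 difference of -0.28 had a limma adjusted p of 0.341.

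Polycomb proteins keep genes silent through histone methylation. The catalytic subunits CLF (orange1.1t04050) and EZA1 (orange1.1t01683) had log2 differences of -0.08 and -0.07. EZA1 measured 52.5 and 55.8 RPKM in 2× and 48.4 and 54.9 RPKM in 4×, and CLF 6.24 and 6.65 RPKM in 2× and 6.09 and 6.04 RPKM in 4×. FIE (Cs4g11260) and MSI1 (Cs5g20710) are further core subunits. FIE measured 29.1 and 25.5 RPKM in 2× and 23.8 and 24.0 RPKM in 4×, and MSI1 72.5 and 63.4 RPKM in 2× and 67.9 and 72.3 RPKM in 4×. LHP1 (Cs7g16000), which binds the Polycomb methylation mark in Arabidopsis, measured 28.1 and 28.9 RPKM in 2× and 24.2 and 22.6 RPKM in 4×. Its groups were apart, with a log2 difference of -0.28, a 95% interval from -0.53 to -0.03 and a limma adjusted p of 0.302. The class was filled from descriptions, so not all of its genes need be Polycomb subunits. It holds genes described as enhancer of polycomb (orange1.1t04283, log2 difference -0.020, and orange1.1t01534, -0.13) and as WD-40 repeat proteins MSI3 and MSI4. Of the 13 tested genes of this class 11 lay below 0, beside 8987 of all 16157 tested genes. The median log2 difference of the class was -0.08, or -0.05 after median-of-ratios scaling. Over all tested genes these medians were -0.027 and 0.0032. None of the 13 was called, where limma called 1.39% of all tested genes. Every interval of the class lay within a 2-fold change, as did that of 92% of all tested genes. Groups did not overlap for 5 of the 13 (38.5%), beside 43.7% of all tested genes in either direction. All 5 were lower in 4×, a direction that held 26.2% of all tested genes, and they include the MSI4 genes Cs4g14180 and Cs1g18260.

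Chromatin remodelers use ATP to move or exchange nucleosomes. BRM (orange1.1t00387), a SWI/SNF ATPase, measured 21.6 and 19.6 RPKM in 2× and 18.9 and 22.5 RPKM in 4×. PKL was described for a pair of neighbouring genes. Cs7g06200 measured 28.2 and 26.9 RPKM in 2× and 25.4 and 27.4 RPKM in 4×, and Cs7g06210 3.55 and 3.26 RPKM in 2× and 3.95 and 5.04 RPKM in 4×. The most abundant remodeler gene was SWI3C (Cs3g19950) at 38.3 to 47.1 RPKM. DDM1, needed for DNA methylation in Arabidopsis, is the name given by hand to Cs1g24000, whose description opens with the ATPase ISW1. This gene was scarce at 0.814 and 0.796 RPKM in 2× and 0.655 and 0.559 RPKM in 4×. It rested on 17 to 26 reads per library, was not tested, and a difference at that level was not measured with useful precision. SNF21 (Cs9g05050) gave the largest remodeler difference, 0.50, through 4×-2 alone. It measured 2.79 and 2.00 RPKM in 2× and 2.26 and 5.46 RPKM in 4×, and its log2 difference was -0.06 without 4×-2. Of the related SNF2 repair helicases, RAD54 (Cs8g05850), which acts in recombination, measured 2.83 and 2.21 RPKM in 2× and 1.53 and 1.57 RPKM in 4×. Its log2 difference of -0.55 was not called (limma adjusted p = 0.363).

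Of the 95 genes in the mixed class, 74 were tested and 1, Cs1g21740, was called, where limma called 1.39% of all tested genes. An ankyrin repeat gene, Cs4g05900, had the smallest limma adjusted p among uncalled members, 0.0979. It measured 7.90 and 9.90 RPKM in 2× and 5.65 and 5.02 RPKM in 4×, a log2 difference of -0.68. Genes described as polyamine oxidases carry the amine oxidase domain of flavin-dependent demethylases. Cs6g15870, described as polyamine oxidase 4, measured 21.4 and 19.1 RPKM in 2× and 16.9 and 14.8 RPKM in 4×. Cs4g14150, described as polyamine oxidase 5, measured 5.74 and 6.18 RPKM in 2× and 4.55 and 3.47 RPKM in 4×. In both, the 4× libraries were lower, with limma adjusted p of 0.267 and 0.244. The nucleosome-binding HMGB9-like gene Cs3g26780 measured 0.974 and 0.793 RPKM in 2× and 1.73 and 1.71 RPKM in 4×, from 15 to 32 reads per library.

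**Figure D5:**
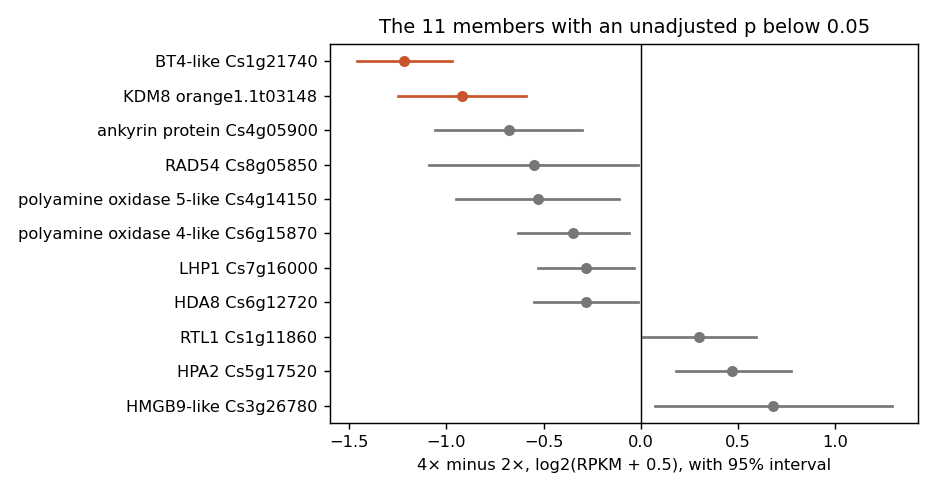
Log2 difference between 4× and 2× with its 95% interval for the 11 members with an unadjusted p below 0.05, the 2 called ones in orange. Both called intervals end below -0.5, and those of the other 9 come closer to 0.

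Partners of this machinery were counted from words in the descriptions of genes outside the set. Limma called 1.39% of all tested genes, and of 81 such partner genes 68 were tested and 1 was called. It was Cs6g01310, described as S-adenosylmethionine synthase 3, an enzyme that makes the methyl donor used by DNA and histone methyltransferases. It measured 138 and 146 RPKM in 2× and 99.4 and 87.5 RPKM in 4×. The 4× libraries were both lower, with a log2 difference of -0.60, SE 0.111 and a limma adjusted p of 0.038. This call was lost without 2×-1 (0.0721), 2×-2 (0.125) or 4×-2 (0.149), with median-of-ratios scaling (0.0542) and with no filter (0.247), all limma adjusted p, and its log2 difference stayed between -0.69 and -0.51. The 5 S-adenosylmethionine synthase genes together summed to 322 and 339 RPKM in 2× and to less in both 4× libraries, with 251 RPKM in 4×-2. The genes described as the largest subunits of RNA polymerases D and E, known in Arabidopsis as polymerases IV and V, were not called. The polymerase D gene Cs5g10190 measured 1.96 and 1.61 RPKM in 2× and 2.19 and 2.45 RPKM in 4×. The polymerase E gene Cs3g01960 measured 4.29 RPKM in both 2× libraries and 4.21 and 5.50 RPKM in 4×. Among methyl-CpG-binding, chromatin assembly, histone chaperone, FACT and double-stranded RNA-binding genes, 0 of 36 tested genes were called by limma. An unadjusted limma p below 0.05 was found in 1 of them, beside 13.3% of all tested genes.

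The 2 libraries of 4× differed in a way that touched many members. The level was higher in 4×-2 than in 4×-1 for 161 of 228 tested members (70.6%). Classes differed, from all 14 tested SNF2 repair helicases, 13 of 14 Argonautes and 20 of 23 remodelers to 6 of 13 Polycomb genes and 1 of 7 DNA methyltransferases. Over all tested genes the share was 51.4%. The share was higher in longer genes, with length recovered from the values. It was 39.9% for the 3210 tested genes of at most 1000 bp and 78.7% for the 2079 genes above 3000 bp. Members were long, with a median of 2518 bp beside 1701 bp for all tested genes, and 85.1% of the 94 members above 3000 bp were higher in 4×-2. The median absolute log2 difference between the 4× libraries was 0.175 for members, beside 0.151 for all tested genes, and that between the 2× libraries 0.123. The median log2 difference between 4× and 2× of the members was 0.046 without 4×-1 and -0.074 without 4×-2. The calls of Cs1g21740 and orange1.1t03148 held without 4×-1 and without 4×-2. The part of gene length or RNA quality in the comparison of 4× with 2× was not tested.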

How the data were processed

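RNA was sequenced as 50 bp single-end reads. The RPKM table that the authors deposited was made from uniquely mapped reads aligned to the Citrus sinensis genome. The submitters' processing notes name TopHat2 2.0.9, Bowtie2 2.0.6, HTSeq 0.5.4p3 and DESeq 1.10.1. Strand use and annotation version were not given in the sources read here. Reads of Citrus junos were mapped to another species, so diverged or duplicated genes have less certain values. No gene coordinates or sequences were used here.

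Members were found by searching the descriptions for 15 phrases and were given 13 classes by hand from their descriptions. Short gene names were also given by hand, and some of these genes have descriptions that open with another name. Members, classes and lists were chosen with earlier results of these data known. Whole reads were recovered for every gene above 0 (24073, 100%) and summed to 97.9% of each library total. They are known up to a factor that a gene's length and counts share. The 16157 genes whose mean reached 1 RPKM were tested on log2(RPKM + 0.5) with limma 3.58.1 in R 4.3.3 (trended eBayes, no replicate block, two-sided p adjusted after Benjamini and Hochberg), and the script was tested on simulated data. Differences on this scale understate those of low genes. Intervals are 95% and come from the same fit. Named members are those called by limma or by limma voom on the recovered reads, the most abundant and the most different of each class, and well-known factors. Relatives of called members, members with an unadjusted p below 0.05 and genes outside the set were also named after their values were seen. Alternatives were pseudocounts of 0.1 and 1, no filter, a mean of at least 3 RPKM, median-of-ratios scaling, robust eBayes, a replicate block, voom and leaving out each library. Tables and figures were made with Python 3.11.15, pandas 2.3.3, numpy 2.4.6, scipy 1.17.1 and matplotlib 3.10.9.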

Additional observations from a re-analysis of the deposited data

How the results depend on the processing

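Of the 228 tested members, 2 were called in the reported fit, and again with either pseudocount, the stricter filter, scaling, robust eBayes and voom. With no filter on low values 0 members and 0 of all genes were called, beside 224 of all genes in the reported fit. Voom called 404 of all genes. Leaving out 1 library gave 1 to 2 member calls (1 without 2×-2) and 77 to 264 calls over all genes, with 77 without 2×-2 and 144 without 2×-1. With the replicate block, 4 members and 832 of all genes were called. The labels give same-numbered libraries a common number and state no pairing. The correlation of their deviations was -0.0462 over 16157 genes. With 2 libraries per ploidy this value cannot show whether they shared anything more. Causes of these shifts were not tested, apart from the fewer samples or the different gene set that an alternative has by construction.

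Of 579 values of 49 named genes under the alternatives, 544 kept direction and side of the threshold. The sign changed for 26 of the values, all of uncalled members, among them SNF21, which was 0.50 in the reported fit. AGO1 was 0.020 with scaling and RDR6 (Cs7g05350) -0.00012 with a pseudocount of 1. When each library was left out, the log2 difference ranged from -0.22 to 0.27 for RDR1 (Cs2g17570), -0.12 to 0.12 for RDR6, -0.13 to 0.34 for DCL1, -0.12 to 0.28 for DCL3, -0.28 to 0.12 for DCL4, -0.13 to 0.11 for AGO1 and -0.15 to 0.16 for ROS1 (Cs6g15500). It ranged from -0.048 to 0.074 for KDM3B, -0.099 to 0.13 for REF6 (Cs5g06680), -0.016 to 0.11 for ATX4, -0.31 to 0.082 for GCN5, -0.052 to 0.12 for HDA6 and -0.16 to 0.060 for SAP18. It ranged from -0.048 to 0.14 for MSI1, -0.16 to 0.020 for EZA1, -0.21 to 0.0016 for EMF2 (Cs9g13680), -0.0026 to 0.29 for SWI3C, -0.13 to 0.13 for BRM and -0.055 to 1.06 for SNF21 (Cs9g05050). Read depth limits the members below 1 RPKM, whose differences were not tested.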
